A study of Mus musculus with 12 samples.

Results

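The genes described here are 45 interferon stimulated genes, which are genes whose transcription rises when a cell senses interferon. They were chosen by name, as the genes in the deposited counts whose Ensembl identifier carries 1 of 45 listed symbols, out of 51826 mouse genes in the table, and all 45 were found. The RNA came from pre-B cell lines, which are cultures of B cell precursors, grown from the bone marrow of 2 wild type C57BL/6 mice. Marrow cells from each mouse were expanded for 7 days with the cytokine IL7, which these precursors need for growth, and then received a retroviral pMIG vector. The 6 EV lines carried the vector with no insert. The 6 BCR-ABL1 lines carried the same vector with BCR-ABL1, the fusion kinase of Philadelphia chromosome-positive leukemia. All 12 lines stayed in IL7 for 48 h after transduction. Culture then differed between the conditions. The BCR-ABL1 lines spent 1 week without IL7, by the end of which they grew independently of it. The EV lines never lost IL7 in a culture of like length, and GFP, the marker of the vector, was used to sort them at its end. The fusion kinase, the loss of IL7 and the sort of the EV lines therefore coincide, and their parts in any difference between the conditions cannot be told apart. Each mouse gave 3 lines per condition, named 1A to 1C and 2A to 2C, so that the 12 lines stand for 2 animals. The labels say that the triplicates came from 3 independent experiments, but not which line belongs to which experiment. Lines with the same mouse and letter were treated as a pair in 1 alternative only.

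Interferons are secreted proteins that warn cells of infection. Type I interferons bind the Ifnar1 and Ifnar2 receptor chains and interferon gamma binds Ifngr1 and Ifngr2, and both receptors use JAK family kinases to activate STAT transcription factors, which act on the interferon stimulated response element (ISRE) together with Irf9 or on the gamma activated site (GAS). Targets include proteins that degrade or sequester viral RNA, sensors that amplify the alarm, GTPases that attack the vacuoles of intracellular microbes and brakes that switch the signal off.

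Total counts per line ran from 34791011 in EV 2A to 66011225 in BCR-ABL1 2B, with medians of 53482987 in EV and 51773506.5 in BCR-ABL1 lines. Levels are given as CPM after TMM scaling. A gene was held to be detected in a line with more than 3 counts. This floor of 3 counts was 0.0920 CPM in EV 2A and 0.0433 CPM in EV 1B, the highest and the lowest of the 12 lines. Of the 13 B lineage markers, all 13 passed the filter on low counts, and their summed level was 4973 to 8361 CPM in EV lines against 4273 to 5323 CPM in BCR-ABL1 lines. Its largest part was Ighm, the heavy chain of IgM, which fell (2228 to 3582 CPM in EV, 1232 to 1445 CPM in BCR-ABL1, log2 fold change -1.07, FDR 0.00129), while Dntt, an enzyme of early B cell precursors, rose (0.101 to 18.5 CPM in EV, 31.6 to 179 CPM in BCR-ABL1, log2 fold change 4.30, FDR 0.0396), although not with the mouse as a replicate block (FDR 0.0533). The lines thus held the markers of their labelled cell type. Of 12 myeloid markers, 3 passed the filter and the list summed to 4.48 to 7.36 CPM in EV lines against 8.43 to 11.5 CPM in BCR-ABL1 lines, led by Cd68, with Elane, S100a8 and S100a9 at or below the floor in every line. Within this list the Fc receptor gene Fcgr3 rose, with at most 0.337 CPM in EV lines and at least 1.14 CPM in BCR-ABL1 lines. Below the filter, Adgre1 went the other way without overlap (75 counts in EV, 3 in BCR-ABL1 lines), Cebpe (30 and 1) and Mpo (34 and 8) were also lower, and Lyz2 was higher (17 and 74). Of 9 T and NK cell markers, 2 passed and the list summed to 10.9 to 41.6 CPM in EV lines against 0.685 to 4.91 CPM in BCR-ABL1 lines, nearly all of it Trac in EV, while Cd3e did not exceed 0.123 CPM in any line. Of 9 markers of plasmacytoid dendritic cells, which are strong producers of type I interferon, 4 passed the filter and the list summed to 199 to 507 CPM in EV lines against 153 to 185 CPM in BCR-ABL1 lines. Most of that was Ly6d and Tcf4, which B cell precursors also express, and the defining marker Siglech did not exceed 0.505 CPM in EV or 0.0304 CPM in BCR-ABL1 lines. The mast cell and basophil, the erythroid and the stromal list reached sums of 0.951, 1.13 and 1.53 CPM at most in a line. The part of these other marker levels in the results was not tested. In bulk RNA, fewer cells that express a gene and less RNA per cell cannot be told apart.

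The 3 EV lines of mouse 2 differed more among themselves than any other set of 3 lines. Their biological coefficient of variation, a measure of spread between lines beyond counting error, was 0.386, against 0.0951 in EV lines of mouse 1 and 0.0843 and 0.103 in mouse 1 and mouse 2 within BCR-ABL1. Line EV 2C was low for several members, for example 9.05 CPM of Ddx58 against 24.8 to 38.1 CPM in the other EV lines, and line EV 2B was high for others, for example 114 CPM of Samhd1 against 12.1 to 51.0 CPM. Results are therefore given with all lines, and the main counts of called members also without EV 2C.

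The comparison of BCR-ABL1 with EV lines asks which of these genes differ between transformed and untransformed precursors. Over the 45 members together, the summed level was 484 to 837 CPM in EV lines against 1333 to 1734 CPM in BCR-ABL1 lines, without overlap. Gbp7 alone made up a large part of this, and without it the sums were 455 to 820 and 788 to 1088 CPM, which overlap. The number of members above the floor, that is with more than 3 counts, was 30 to 41 per EV line and 44 or 45 per BCR-ABL1 line. Tested against a 1.5-fold change with edgeR's glmTreat and Benjamini-Hochberg adjustment over 15038 genes (FDR below 0.05), 17 members rose in BCR-ABL1 lines and 0 fell, where 5.99% of all tested genes rose and 6.49% fell. At an unadjusted p below 0.05 in the same test, 20 members were higher and 1 was lower. No share of all tested genes was taken at that unadjusted threshold, so these 2 counts have no comparison with genes in general. DESeq2 against the same fold change also called 0 members lower. Without line EV 2C, 18 of 43 tested members rose and 1, Samhd1, fell, against 8.83% and 9.35% of all tested genes in that fit. The test covered 41 members, and the other 4 (Oasl1, Rsad2, Ifitm3 and Ifi44) fell below the filter. Since a gene can pass the filter through the condition where it is high, the counts describe the tested members and not all 45. The median log2 fold change of the 41 was 0.76, against -0.02 over all tested genes. In 20 of the 45, and in 19 of the 41 tested, all 6 BCR-ABL1 lines lay above all 6 EV lines, an arrangement found for 12.1% of tested genes. In 0 members did all 6 lie below, against 13.5% of tested genes.

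**Figure D1:**
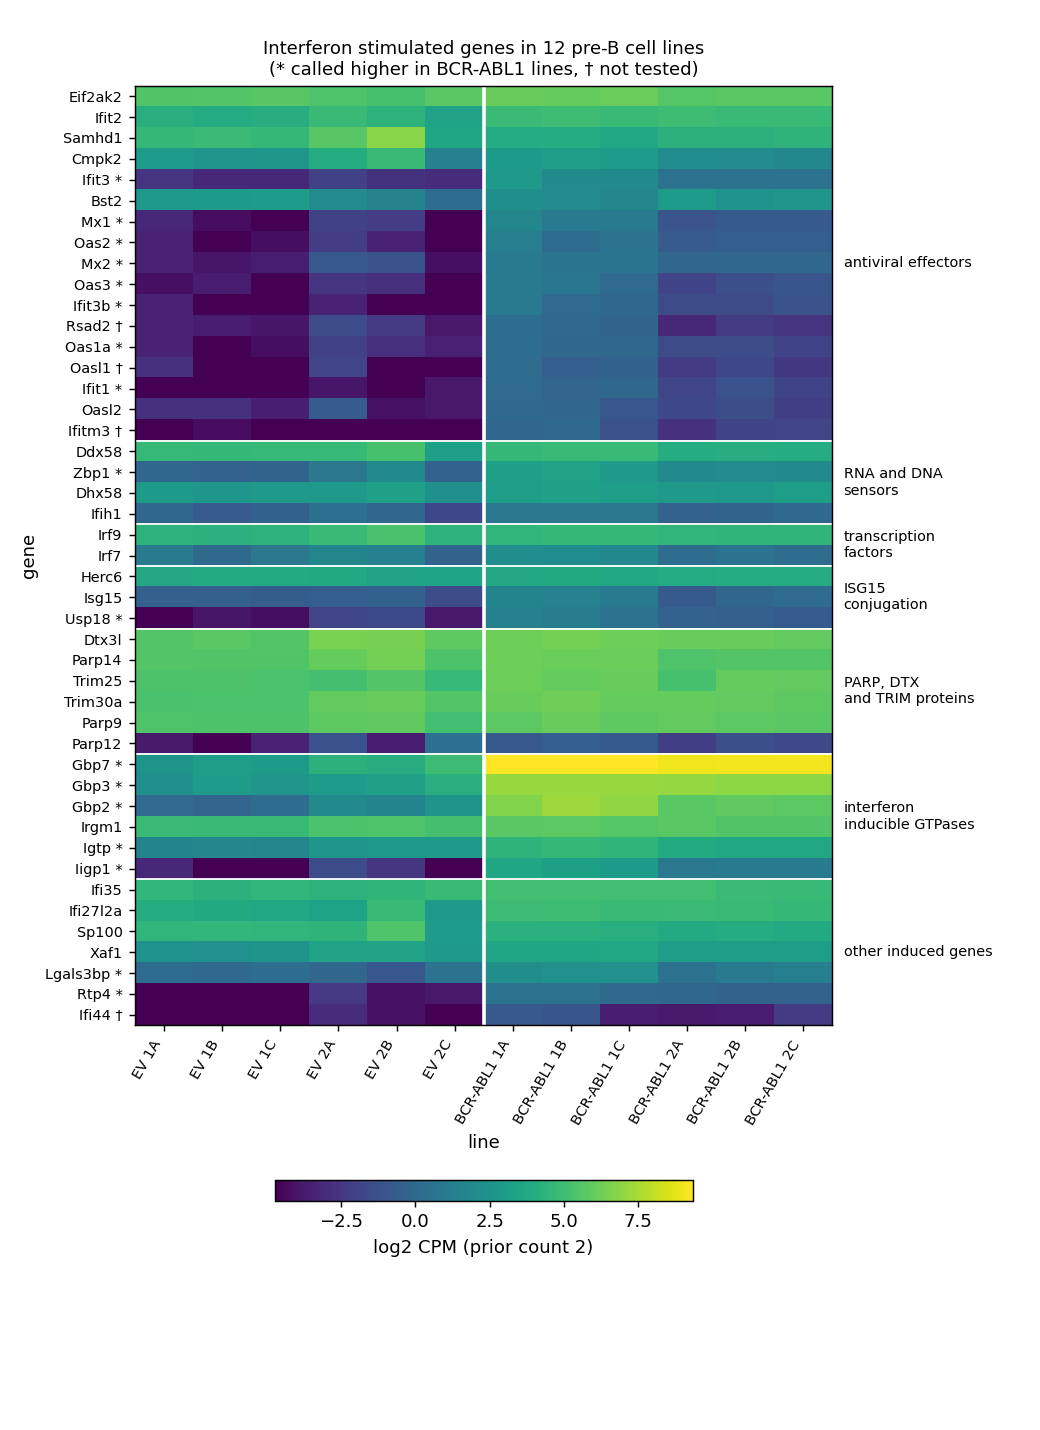
Log2 CPM (prior count 2) of each of the 45 members (rows, grouped by role) in each of the 12 lines (columns), with a white line between EV and BCR-ABL1 lines. The GTPase gene Gbp7 is the brightest row on the right, reaching 646 CPM, and many antiviral genes go from near 0 to low levels that are higher in lines 1A to 1C than in 2A to 2C.

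The 6 interferon inducible GTPases summed to 43.6 to 96.9 CPM in EV lines against 786 to 1025 CPM in BCR-ABL1 lines, and 5 of them rose. Guanylate binding proteins coat the vacuoles of intracellular bacteria and parasites, and the immunity related GTPases Igtp, Irgm1 and Iigp1 act on the same membranes. Gbp7 (ENSMUSG00000040253, chr3:142530342-142550149) had a lowest, median and highest level of 5.72, 12.6 and 29.5 CPM in EV and 529, 590 and 646 CPM in BCR-ABL1 lines. The lowest BCR-ABL1 line thus stood far above the highest EV line, EV 2C. The log2 fold change was 5.33 ± 0.40 (standard error, n = 6 and 6 lines, FDR 5.87e-06). Gbp3, which lies beside it at chr3:142560026-142573209, had 4.97, 8.02 and 17.7 CPM in EV and 124, 139 and 145 CPM in BCR-ABL1 lines, a log2 fold change of 3.89 ± 0.28 (FDR 4.22e-06). Gbp2 (chr3:142620602-142638008) had 0.852, 2.06 and 5.90 CPM in EV and 53.5, 80.6 and 147 CPM in BCR-ABL1 lines. For Gbp2 the lines of mouse 1 (102 to 147 CPM) were apart from those of mouse 2 (53.5 to 58.9 CPM) within BCR-ABL1. Its log2 fold change was 5.10 ± 0.56 (FDR 9.46e-05). In EV lines, all 3 genes were highest in EV 2C.

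Igtp had 3.01, 4.74 and 6.89 CPM in EV and 12.7, 17.9 and 25.0 CPM in BCR-ABL1 lines, a log2 fold change of 1.89 ± 0.28 (FDR 0.00187). Both conditions separated by mouse, in opposite directions, with EV lines of mouse 2 and BCR-ABL1 lines of mouse 1 the higher ones. Iigp1 (ENSMUSG00000054072) was close to the floor in EV, with 0, 0.0376 and 0.307 CPM, and reached 1.85, 4.80 and 11.9 CPM in BCR-ABL1 lines. Its fitted log2 fold change was 6.24 ± 1.04 (FDR 0.00157), and the ratio of summed counts, 1810 in BCR-ABL1 and 21 in EV lines, was 88.7 (95% exact counting interval 57.8 to 144). Irgm1 had 26.5, 32.8 and 43.8 CPM in EV and 46.2, 50.5 and 55.9 CPM in BCR-ABL1 lines. The lines did not overlap, but the difference did not pass the test against 1.5-fold (log2 fold change 0.57 ± 0.13, FDR 0.794), and it did pass the test against no change (FDR 0.00329). For each of the 6 GTPases, the exact permutation test over all labelings of the 12 lines gave p = 0.00216, the smallest it can give.

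The sequence upstream of the gene starts was read for sites of the pathway's transcription factors. RefSeq windows (GRCm38.p6) from 250 bases before to 50 bases after the start were at hand for 34 of the 45 members and were searched on both strands for the ISRE core GAAANNGAA and the GAS motif TTCNNNGAA. The ISRE core was in the window of 20 of these 34 genes and in 9.76% of 27025 genes, and GAS was in 9 of 34 and in 9.55%. Among the 10 members called higher that had a window, 9 held the ISRE core, among the 20 tested and not called, 8 did, and among the 4 not tested, 3 did. For GAS these counts were 3 of 10, 5 of 20 and 1 of 4. The 11 members without a window were Oas2, Mx1, Mx2, Dhx58, Zbp1, Usp18, Parp9, Parp14, Iigp1, Ifi27l2a and Rtp4. A match is a description of letters and does not show that a factor binds there. Stretches upstream of the RefSeq start of 5 GTPase genes are printed 5′ to 3′ in the direction of transcription. They show the matches in genes with large, moderate and uncalled differences, with both motifs in capitals (an ISRE core on the other strand reads TTCNNTTTC, and neighbouring matches run together). They lie at chr3:142530224-142530322 (Gbp7, plus strand), chr3:142559946-142560043 (Gbp3, plus strand), chr3:142620545-142620643 (Gbp2, plus strand), chr11:58199462-58199555 (Igtp, plus strand) and chr11:48871421-48871504 (Irgm1, minus strand).
Gbp7: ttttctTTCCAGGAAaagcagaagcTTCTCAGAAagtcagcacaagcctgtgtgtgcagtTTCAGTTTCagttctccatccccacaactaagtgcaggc
Gbp3: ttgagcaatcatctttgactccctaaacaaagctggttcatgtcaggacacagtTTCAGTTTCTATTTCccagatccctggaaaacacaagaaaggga
Gbp2: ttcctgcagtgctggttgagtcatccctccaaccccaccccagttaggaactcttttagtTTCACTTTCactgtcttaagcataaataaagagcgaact
Igtp: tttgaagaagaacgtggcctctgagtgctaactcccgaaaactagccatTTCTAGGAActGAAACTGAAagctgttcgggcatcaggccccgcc
Irgm1: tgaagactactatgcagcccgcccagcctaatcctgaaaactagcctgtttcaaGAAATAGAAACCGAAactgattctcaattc
In Gbp7 the stretch holds 1 ISRE core, 52 bases before the RefSeq start, and 2 GAS matches, and Gbp3 holds 2 overlapping ISRE cores. Gbp2 holds 1 ISRE core, 58 bases before the RefSeq start. RefSeq starts can differ from the GENCODE gene coordinates, which are those printed above for Gbp7, Gbp3 and Gbp2. By GENCODE coordinates, the ISRE core of Gbp2 lies just inside the gene. The stretch of Gbp3 likewise runs into its gene, and that of Irgm1 lies wholly inside its gene. Igtp holds a GAS match 2 bases upstream of its ISRE core, and Irgm1, which was not called, holds 2 overlapping ISRE cores.

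The antiviral effectors were the largest group, with 17 members, of which 14 were tested, 8 rose and 0 fell. Most of the 8 were barely detected in EV lines and stayed at low levels in BCR-ABL1 lines, as Iigp1 did and in contrast to Gbp2, Gbp3 and Gbp7. Ifit1 (ENSMUSG00000034459), which binds foreign RNA, had 0, 0 and 0.0361 CPM in EV and 0.228, 0.626 and 1.09 CPM in BCR-ABL1 lines. That is 3 counts over 6 EV lines against 197 over 6 BCR-ABL1 lines, a ratio of 67.6 (95% exact counting interval 22.8 to 330). The fitted log2 fold change was 5.75 ± 0.76 (FDR 3.50e-04), a value that depends on the prior count at levels this low. Ifit3, a partner of Ifit1, had 0.0722, 0.105 and 0.215 CPM in EV and 1.37, 2.66 and 7.12 CPM in BCR-ABL1 lines (log2 fold change 4.79 ± 0.53, FDR 1.07e-04). Its near copy Ifit3b had 0, 0 and 0.0613 CPM in EV and 0.304, 0.695 and 2.00 CPM in BCR-ABL1 lines, with a log2 fold change of 5.54 ± 0.85 (FDR 9.98e-04) and a ratio of 269 to 5 counts of 55.4 (23.4 to 172). Of the runs of 75 bases in the Ifit3 transcript, 41.1% also occur in Ifit3b, so the split of reads between them is uncertain. For Ifit1, Ifit3 and Ifit3b, no EV line reached the lowest BCR-ABL1 line.

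The oligoadenylate synthetases Oas1a, Oas2 and Oas3, which switch on an RNA-degrading enzyme when they meet double-stranded RNA, rose, as did the dynamin-like GTPases Mx1 and Mx2. Their levels were at most 0.521 CPM in any EV line and 0.228 to 3.31 CPM in BCR-ABL1 lines, and the fitted log2 fold changes ran from 2.96 for Mx2 (FDR 0.0199) to 4.66 for Oas2 (FDR 0.00126). Within mouse 2, Oas2 alone of these 5 was called (FDR 0.0175), while Oas1a, Oas3, Mx1 and Mx2 were not (FDR 0.254, 0.0702, 0.125 and 0.178), and Oas1a also lost its call with the line pair as replicate block. Oas1a shares 47.6% of its runs of 75 bases with Oas1g, whose highest level was 0.0848 CPM. Oasl2 overlapped between the conditions, with 0.0199 to 0.583 CPM in EV lines against 0.187 to 1.00 CPM in BCR-ABL1 lines (log2 fold change 1.96 ± 0.71, FDR 0.148). The 3 antiviral members below the filter were also low. Oasl1 had 14 counts over the EV and 167 over the BCR-ABL1 lines, a ratio of 12.3 (7.11 to 22.9), with at most 69 counts in a line. Rsad2, which makes a chain-terminating nucleotide, had 28 and 181 counts (ratio 6.65, 4.45 to 10.3), with at most 74 in a line. The difference of Rsad2 lay in mouse 1 (ratio 24.9), and in mouse 2 the ratio was 0.876 (0.452 to 1.70). Ifitm3, which blocks virus entry at membranes, had 1 and 152 counts (ratio 156, 27.7 to 6218), with at most 53 in a line.

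The other 5 tested antiviral members were above the floor in every line, and none of them was called by glmTreat with all lines. Ifit2 had 10.3, 16.7 and 26.4 CPM in EV and 26.7, 28.5 and 31.5 CPM in BCR-ABL1 lines, which did not overlap (log2 fold change 0.71 ± 0.18, FDR 0.371). Ifit2 was thus present in every EV line while Ifit1 and Ifit3 beside it on chromosome 19 were at or near the floor. Eif2ak2, the kinase that halts translation when it binds double-stranded RNA, had 38.1 to 53.8 CPM in EV lines against 49.1 to 68.6 CPM in BCR-ABL1 lines. Samhd1, which depletes nucleotides, had 12.1 to 114 CPM in EV lines against 12.9 to 20.9 CPM in BCR-ABL1 lines (log2 fold change -1.30 ± 0.44, FDR 0.163). The width of the EV range came from the lines of mouse 2. Samhd1 was lower by glmQLFTest against no change (FDR 0.0298), in a fit on the lines of mouse 1 alone (FDR 0.0119) and without EV 2C (FDR 0.0448), but not within mouse 1 in the fit of all lines (FDR 0.559). Cmpk2, a mitochondrial nucleotide kinase next to Rsad2 on chromosome 12, had 2.69 to 26.4 CPM in EV lines against 3.49 to 8.49 CPM in BCR-ABL1 lines. Bst2, which tethers virus particles to the cell, had 1.14 to 8.11 and 3.32 to 8.18 CPM. In the lines of mouse 1 alone Bst2 was called lower (log2 fold change -0.86, FDR 0.04995).

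Upstream stretches of 4 antiviral members that rose from near the floor are shown because each holds more than 1 ISRE core, in capitals. They lie at chr19:34640745-34640843 (Ifit1, plus strand), chr19:34583367-34583465 (Ifit3, plus strand), chr19:34607763-34607861 (Ifit3b, plus strand) and chr5:120777690-120777788 (Oas3, minus strand).
Ifit1: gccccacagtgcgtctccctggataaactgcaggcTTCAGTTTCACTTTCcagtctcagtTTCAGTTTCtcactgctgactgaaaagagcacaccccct
Ifit3: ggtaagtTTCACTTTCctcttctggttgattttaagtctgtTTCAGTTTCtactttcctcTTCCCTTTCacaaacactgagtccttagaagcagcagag
Ifit3b: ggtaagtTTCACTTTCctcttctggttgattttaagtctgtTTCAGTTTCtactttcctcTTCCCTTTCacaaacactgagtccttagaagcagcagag
Oas3: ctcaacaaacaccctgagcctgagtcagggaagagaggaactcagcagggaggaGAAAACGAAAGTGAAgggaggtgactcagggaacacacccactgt
Ifit1, Ifit3 and Ifit3b each hold 3 ISRE cores in the printed stretch. The stretches of Ifit3 and Ifit3b have the same letters and begin 162 and 194 bases before their RefSeq starts. Oas3 holds 2 overlapping cores. Several cores were also found in members that were not called, with 3 in the window of Isg15 and 2 each in those of Bst2, Eif2ak2 and Ifih1. The 2 windows of Ifit2 held 0 ISRE cores and 1 GAS match.

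**Figure D2:**
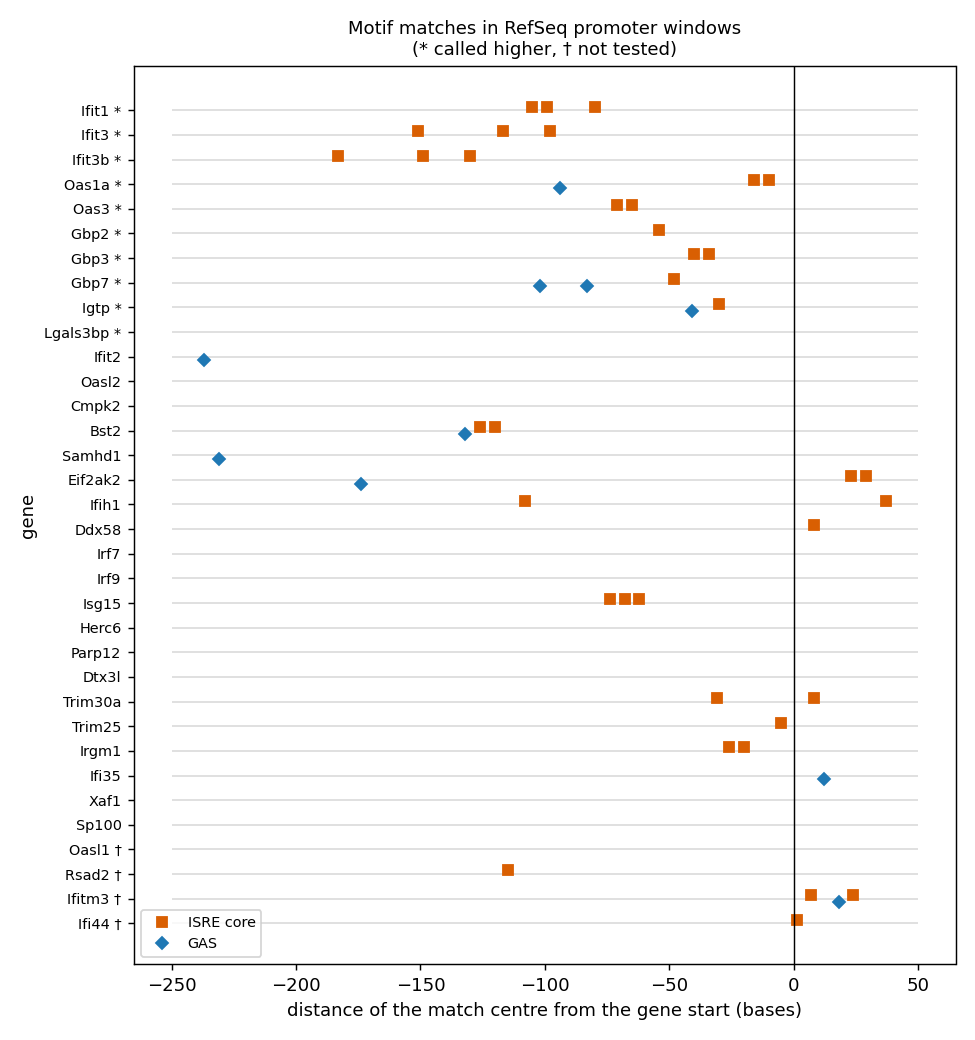
Positions of ISRE core (squares) and GAS (diamonds) matches in the promoter windows of the 34 members that had one. Distances in bases run from the RefSeq start to the match centre, and the windows of a gene with several starts share a line. Matches of members called higher lie upstream of the RefSeq start, and Lgals3bp is the called member with no match. By GENCODE coordinates, the ISRE core of Gbp2 lies inside the gene.

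Of the 4 RNA and DNA sensors, 1 rose. Zbp1, which detects Z-form nucleic acid and can trigger cell death, had 0.757, 0.912 and 3.73 CPM in EV and 3.74, 5.75 and 10.2 CPM in BCR-ABL1 lines (log2 fold change 2.13 ± 0.46, FDR 0.0160), so the highest EV line, EV 2B, was just under the lowest BCR-ABL1 line, 2C. Within mouse 2 Zbp1 was not called (log2 fold change 0.91, FDR 0.419). The RNA helicases Ddx58 (RIG-I), Ifih1 (MDA5) and Dhx58 were not called. Ddx58 had 9.05 to 38.1 CPM in EV lines against 15.5 to 28.0 CPM in BCR-ABL1 lines. Ifih1 had 0.270 to 1.26 and 0.751 to 1.82 CPM. Neither of the 2 transcription factors was called. Irf9, a DNA-binding subunit of the complex at the ISRE, had 19.2, 20.4 and 38.8 CPM in EV and 22.2, 23.0 and 25.0 CPM in BCR-ABL1 lines (log2 fold change -0.06 ± 0.16, FDR 1). Irf7, which drives type I interferon genes, had 0.811 to 3.25 CPM in EV lines against 1.17 to 4.44 CPM in BCR-ABL1 lines, where the lines of mouse 1 were at 3.50 to 4.44 CPM and those of mouse 2 at 1.17 to 1.52 CPM.

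Among the 3 members of ISG15 conjugation, 1 rose. Usp18, which removes ISG15 from proteins and dampens type I receptor signaling, had 0, 0.0325 and 0.298 CPM in EV and 0.602, 1.12 and 2.59 CPM in BCR-ABL1 lines (log2 fold change 3.86 ± 0.79, FDR 0.00672), or 28 against 444 counts, a ratio of 16.3 (11.1 to 24.8). Isg15, the ubiquitin-like modifier itself, had 0.325, 0.669 and 0.735 CPM in EV and 0.558, 1.54 and 3.02 CPM in BCR-ABL1 lines, and the conditions overlapped through line 2A. Its log2 fold change of 1.47 ± 0.40 missed the threshold (FDR 0.0661), and with the mouse as a replicate block it passed (FDR 0.0436). With this block 18 members rose, the 17 and Isg15, and 0 fell, against 7.49% and 7.18% of all tested genes. Herc6, the mouse ligase for ISG15, had 10.4 to 14.5 CPM in EV lines against 12.9 to 15.9 CPM in BCR-ABL1 lines.

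The 6 PARP, DTX and TRIM proteins, which modify proteins with ADP-ribose or ubiquitin, had 0 members called by glmTreat in either direction with all lines. Parp9 and its partner Dtx3l, Parp14, Trim25 and Trim30a were at 26.0 to 89.6 CPM in EV lines, against 37.2 to 84.5 CPM in BCR-ABL1 lines. Parp9 and Dtx3l overlap on opposite strands over 458 exon bases. Trim30a had 39.1, 44.5 and 67.2 CPM in EV and 57.5, 64.1 and 77.7 CPM in BCR-ABL1 lines (log2 fold change 0.40 ± 0.14, FDR 1). Parp12 was at 0 to 1.26 CPM in EV lines, with the highest value in EV 2C, against 0.193 to 0.648 CPM in BCR-ABL1 lines. Within mouse 1 Parp12 was called higher by glmTreat (log2 fold change 4.06, FDR 0.0196). Within mouse 2 its log2 fold change was -1.02 (FDR 0.753). Trim30a and Trim25 passed the test against no change (FDR 0.0345 and 0.00729). Over the 41 tested members, glmQLFTest against no change called 26 members higher and 1 lower, where 22.5% and 25.9% of all tested genes were called.

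Of the 7 other induced genes, 6 were tested and 2 rose. Rtp4 (ENSMUSG00000033355), a receptor transporter that limits viral replication, had 0, 0.00993 and 0.153 CPM in EV and 0.806, 0.996 and 1.51 CPM in BCR-ABL1 lines, a fitted log2 fold change of 5.25 ± 0.69 (FDR 3.39e-04) and a ratio of 347 to 8 counts of 44.6 (22.4 to 104). The secreted galectin ligand Lgals3bp had 0.497, 1.08 and 1.51 CPM in EV and 1.44, 3.51 and 5.25 CPM in BCR-ABL1 lines (log2 fold change 1.72 ± 0.36, FDR 0.0176, exact permutation p = 0.00433), with BCR-ABL1 2A below EV 2C. Ifi27l2a, a small mitochondrial protein gene, had 6.92, 13.5 and 28.2 CPM in EV and 24.6, 28.4 and 31.1 CPM in BCR-ABL1 lines (log2 fold change 0.94 ± 0.26, FDR 0.174), overlapping through EV 2B. Ifi35 had 20, 22.6 and 27.5 CPM in EV and 28.1, 33.9 and 34.9 CPM in BCR-ABL1 lines, without overlap, a difference under 1.5-fold (log2 fold change 0.50 ± 0.09, FDR 1). Xaf1 and the nuclear body protein gene Sp100 overlapped between the conditions, with 5.07 to 11 and 7.83 to 43.4 CPM in EV and 8.36 to 12.3 and 14.3 to 19.3 CPM in BCR-ABL1 lines. Ifi44, below the filter, had 4 counts over the EV and 70 over the BCR-ABL1 lines (ratio 18, 6.73 to 67.9), with 32 and 23 of the 70 in BCR-ABL1 1A and 1B. In mouse 2 the ratio of Ifi44 was 2.71 (0.838 to 11.4), an interval that includes 1.

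**Figure D3:**
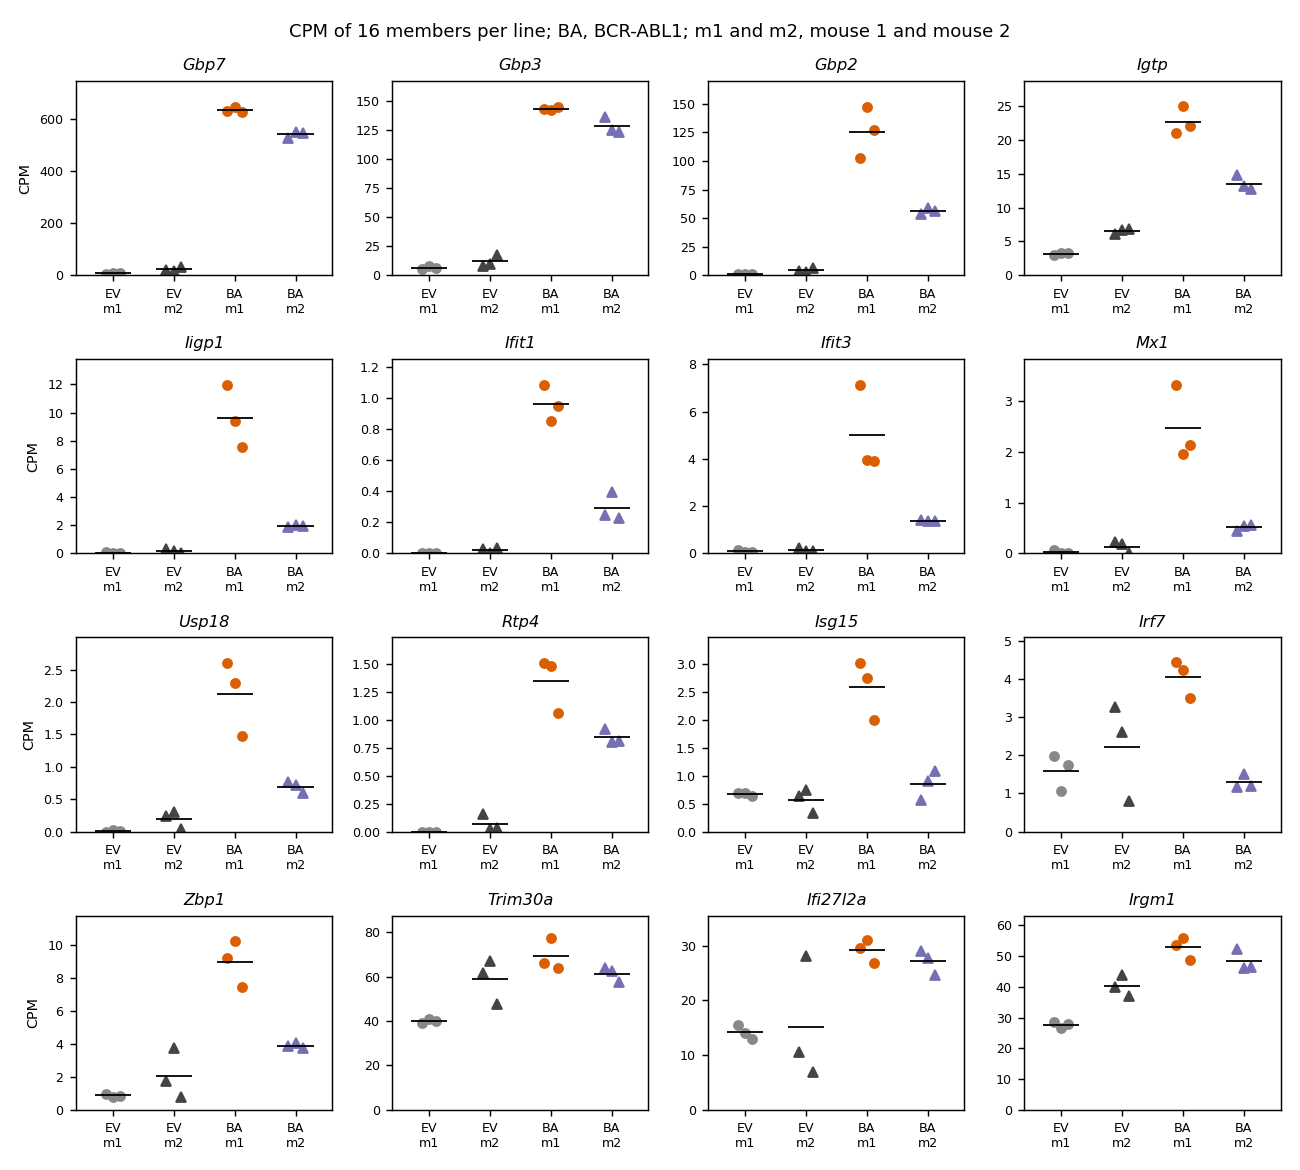
CPM (vertical axis, from 0) of 16 members in each line, by condition and mouse; points are single lines and bars are means of 3 lines. Gbp7 and Gbp3 are high in all BCR-ABL1 lines, whereas Iigp1, Ifit1, Ifit3 and Mx1 are higher in mouse 1 than in mouse 2 within BCR-ABL1.

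Levels of different genes can be compared once they are divided by exon length. In EV lines the highest mean levels per kilobase were those of Ifi27l2a (31.8 ± 15.7 CPM per kilobase, SD over 6 lines), Ifi35 (13.2) and Trim30a (12.0). In BCR-ABL1 lines they were those of Gbp7 (105), Ifi27l2a (60.8) and Gbp3 (41.6), with Gbp2 next at 36.1. In the same scale, Ifit3 had a mean of 1.83, Iigp1 of 0.994 and Ifit1 of 0.237 CPM per kilobase in BCR-ABL1 lines. Gbp2, Gbp3 and Gbp7 thus passed Trim30a (15.9 in BCR-ABL1 lines) per kilobase, while the antiviral genes that rose stayed below it.

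**Figure D4:**
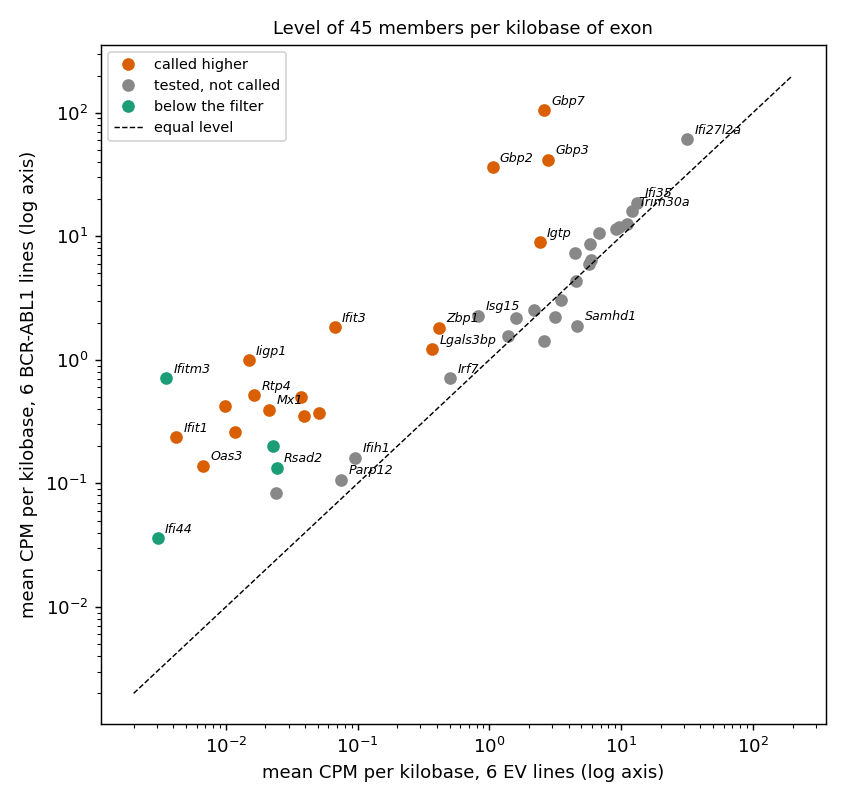
Mean CPM per kilobase of exon of each of the 45 members in 6 EV lines (horizontal) and 6 BCR-ABL1 lines (vertical), both on log axes, with the line of equal level dashed. Gbp7, Ifi27l2a, Gbp3 and Gbp2 sit at the top (105, 60.8, 41.6 and 36.1 in BCR-ABL1 lines), Ifi44, Ifitm3 and Ifit1 at the far left (0.00304, 0.00355 and 0.00419 in EV lines), and Trim30a and Ifi35 lie near the dashed line.

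The next comparison asks whether the difference between the conditions was the same in the lines of both mice. Within mouse 1, 22 members rose and 0 fell, where 11.9% and 7.44% of all tested genes did. Within mouse 2, 10 rose and 0 fell, against 6.25% and 6.66% of all tested genes. Without EV 2C more genes of any kind were called. Of 43 tested members 29 then rose and 0 fell within mouse 1, against 15.1% and 10.7% of all tested genes, and 13 rose and 5 fell within mouse 2 (Cmpk2, Samhd1, Ddx58, Irf7 and Sp100), against 13% and 14%. The 5 that fell are thus a share near that of all genes. At an unadjusted p below 0.05, 0 members were lower in mouse 1 and 2 in mouse 2 by the same glmTreat test. For this unadjusted threshold too, the share of all tested genes was not taken. Fits on the lines of mouse 1 alone and of mouse 2 alone called 2 (Samhd1 and Bst2) and 0 lower. The share of all tested genes in these fits is not given. The 10 that rose in mouse 2 were among the 22 of mouse 1. Of the 17 called over all lines, Oas1a, Oas3, Mx1, Mx2, Zbp1, Usp18 (FDR 0.0592) and Lgals3bp (FDR 0.202) were not called within mouse 2. In a fit on the lines of mouse 2 alone, Oas2 and Iigp1 also fell short (FDR 0.0831 and 0.0503). The median log2 fold change of the tested members was 1.35 in mouse 1 and 0.60 in mouse 2, against -0.02 in both for all tested genes. The EV lines of mouse 1 had 0 counts of Ifit1 and Rtp4, whose ratios there have only a lower limit, 48.9 for Ifit1 and 69.1 for Rtp4 (lower end of the 95% exact counting interval), and both limits lie above the median.

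The interaction of mouse and condition (edgeR glmQLFTest) was significant for 20 of the 41 tested members. In 19 of them the log2 fold change was smaller in mouse 2, where 10.8% of all tested genes were called that way, and in 1, Bst2, it was larger, against 6.1% of all genes. In all, 39 of 41 tested members had a larger log2 fold change in mouse 1, and so did 52.4% of all tested genes. The lowest FDR was that of Igtp, whose log2 fold change was 2.82 in mouse 1 and 1.04 in mouse 2, a difference of -1.78 ± 0.16 (FDR 3.17e-05). Gbp2 followed with 6.92 and 3.70 (difference -3.22 ± 0.32, FDR 5.64e-05) and Gbp7 with 6.42 and 4.63 (difference -1.79 ± 0.28, FDR 0.00124). Xaf1 had 1.14 and -0.14 (FDR 0.00210), Irgm1 0.93 and 0.26 (FDR 0.00387) and Usp18 6.87 and 1.89 (FDR 0.00405), where the value of mouse 1 rests on 3 counts in its EV lines and on the prior count. Gbp3 missed the threshold, with 4.49 and 3.42 (FDR 0.0577). Without line EV 2C, the interaction was called for 34 of 43 tested members, 32 with a smaller and 2 with a larger log2 fold change in mouse 2, against 20.5% and 15.5% of all tested genes in that fit. Without any 1 of the other lines it was called for 15 to 20 members.

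Markers of cell types also differed in this way between the mice. Klrb1c, an NK cell receptor gene, was at 0.0289 to 0.0921 CPM in mouse 1 and 0.797 to 1.07 CPM in mouse 2 among EV lines, and at 1.05 to 3.68 and 0.353 to 0.639 CPM among BCR-ABL1 lines, an interaction of -5.94 ± 0.74 (FDR 2.88e-04). Ly6c2, of the myeloid list, had an interaction of -3.96 ± 0.56 (FDR 6.60e-04). Of the B lineage list Dntt, Vpreb2, Vpreb1 and Igll1 were called, with -7.35, -3.52, -1.96 and -1.72. Of the plasmacytoid dendritic cell list Tcf4 and Ly6d had -1.01 and -1.35, while Bst2 and Cox6a2 had 2.15 and 4.29. EV and BCR-ABL1 lines thus differed between the mice in markers as well as in members, and the part of these markers in the interaction of the members was not tested.

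**Figure D5:**
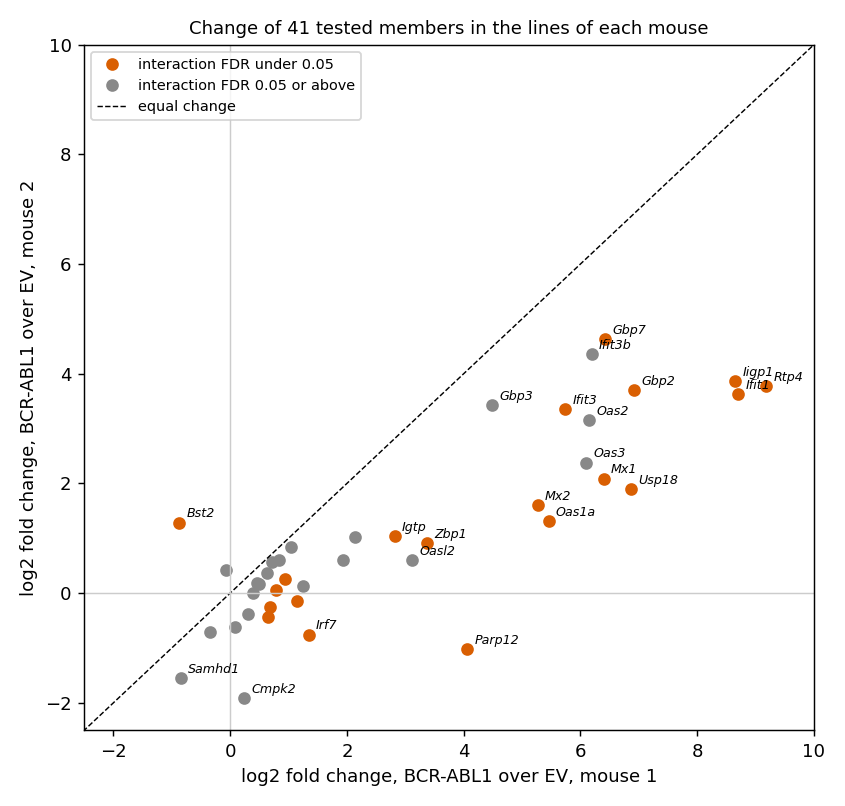
Log2 fold change between BCR-ABL1 and EV lines in the lines of mouse 1 (horizontal) and mouse 2 (vertical) for the 41 tested members, with members past the interaction test in orange and the line of equal change dashed. Of the 41 points 39 lie below the dashed line, Bst2 is the orange point above it, and the horizontal positions of Ifit1 and Rtp4 rest on 0 counts in the EV lines of mouse 1 and on the prior count.

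Lines of the same condition also differed between the mice. Among EV lines, 6 members were higher in mouse 2 than in mouse 1 (Usp18, Parp12, Gbp2, Gbp7, Igtp and Rtp4) and 0 were lower, where 8.23% and 2.02% of all tested genes were. In Gbp2 the EV lines had 0.852 to 1.17 CPM (mouse 1) or 2.96 to 5.90 CPM (mouse 2), without overlap. Parp12 overlapped, with EV 2B below EV 1C and most of its counts in EV 2C (70). Rtp4 rests on 5, 1 and 2 counts in mouse 2, of which 2 lines are under 3 counts, against 0 in mouse 1. Among BCR-ABL1 lines, Ifit3 and Isg15 were lower in mouse 2 and 0 members were higher, where 1.16% and 1.5% of all tested genes were. Within BCR-ABL1, mouse 1 and mouse 2 had 3.91 to 7.12 CPM and 1.37 to 1.41 CPM of Ifit3, and 2.00 to 3.02 CPM and 0.558 to 1.08 CPM of Isg15, without overlap. At an unadjusted p below 0.05, glmTreat put 15 members lower and 0 higher in mouse 2 among BCR-ABL1 lines, and 1 lower among EV lines. The share of all tested genes at this unadjusted threshold was not taken, so these counts cannot be set against genes in general. The direction was shared by many members below the threshold. In 34 of the 45, and in 31 of the 41 tested, all 3 BCR-ABL1 lines of mouse 1 lay above all 3 of mouse 2. This arrangement was found for 18.7% of tested genes. The reverse held for 3 members, all of them tested, against 19.8%. Among EV lines, 10 members had all 3 lines of mouse 2 above those of mouse 1, against 16.6% of tested genes, and 1 had all 3 below, against 16.1%. The median log2 difference of mouse 2 from mouse 1 was -0.74 in BCR-ABL1 and 0.56 in EV lines over the tested members, against -0.00 and 0.02 over all tested genes. Each mouse is 1 animal, and whether the animal, its culture or its transduction set these values was not tested. These counts changed with single lines left out, in fits where 1 estimate of the spread is shared by all groups. Without EV 2C, 14 members were higher and 1 lower in mouse 2 among EV lines, against 12.8% and 4.06% of all tested genes in that fit, and 14 were lower and 0 higher among BCR-ABL1 lines, against 2.48% and 2.83%. Without EV 1B or EV 1C, 3 were higher among EV lines. Among BCR-ABL1 lines, 0 were lower without BCR-ABL1 2A, 2B or 2C, 1 without BCR-ABL1 1A, 1B or 1C or without EV 1B or EV 1C, and 5 without EV 2B.

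The rest of the interferon pathway was read from lists of ligands, receptors, signal carriers and brakes. Of 21 interferon ligand genes, 0 passed the filter, 8 had 0 counts in every line, and the highest level was 0.613 CPM, of Ifnz in EV 2A. Interferon gamma (Ifng) had at most 0.101 CPM in EV lines and 0 counts in BCR-ABL1 lines. Ifnab went the other way, with 2 counts in EV and 25 in BCR-ABL1 lines (ratio 12.9, 3.21 to 112) and at most 7 in a line. Of 6 receptor chains, 1 rose, where 5.99% of all tested genes did. Ifngr2, a chain of the interferon gamma receptor, had 25.5, 29.4 and 35.2 CPM in EV and 48.1, 64.6 and 72.6 CPM in BCR-ABL1 lines (log2 fold change 1.07 ± 0.11, FDR 0.00199). The other chain, Ifngr1, was at 35.6 to 51.9 and 59.1 to 75.1 CPM, without overlap but not called (FDR 0.598). The type I chains Ifnar1 and Ifnar2 had log2 fold changes of 0.44 and 0.85 (FDR 1 and 0.315), Il10rb of 0.55 (FDR 0.856) and Ifnlr1 of -0.06 (FDR 1). Against no change, all chains but Ifnlr1 were higher, where 22.5% of all tested genes were. Within mouse 1 Ifnar2, Ifngr2 and Il10rb were called higher, where 11.9% of all tested genes were. The interaction with the mouse was significant for 5 of the 6 chains, all but Ifngr1, each with the smaller log2 fold change in mouse 2. Of all tested genes, 10.8% were called that way. Ifngr2 had 1.39 in mouse 1 and 0.74 in mouse 2 (interaction FDR 0.00544), and within mouse 2 it was not called (FDR 0.101). Ifnar2 had 1.86 in mouse 1 and 0.15 in mouse 2 (interaction FDR 1.14e-05).

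The receptor kinases Jak1, Jak2 and Tyk2 and the transcription factor Stat2 were not called by glmTreat. Their log2 fold changes were -0.07, -0.62, -0.53 and -0.05, with FDR of 0.552 or above, and Jak2 and Tyk2 were lower by glmQLFTest against no change. Among further interferon regulatory factors, Irf2, which can oppose Irf1 at shared sites, was lower in BCR-ABL1 lines (31.2, 48.2 and 58.1 CPM in EV, 20.3, 25.9 and 29.7 CPM in BCR-ABL1, log2 fold change -0.93 ± 0.14, FDR 0.0362). This call held in 11 of 22 alternative settings and was lost with DESeq2, without the filter, with the line pair as block, in mouse 2 alone and with any of 7 single lines left out. Irf1 had -0.39, Irf3 -0.49, Irf4 -0.77, Irf5 1.01 and Irf8 -0.78, none of them called by glmTreat, while glmQLFTest against no change put Irf5 higher and Irf1, Irf2, Irf3, Irf4 and Irf8 lower. By that test 22.5% of all tested genes were higher and 25.9% lower. Of 19 genes of sensing and induction, 16 were tested and 0 were called by glmTreat. For these, glmQLFTest against no change put 2 higher and 3 lower, against 22.5% and 25.9% of all tested genes. Of 13 genes listed as brakes, 12 were tested, and by glmTreat 3 rose and 0 fell, where 5.99% and 6.49% of all tested genes did. By glmQLFTest against no change 5 were higher and 2 lower, against 22.5% and 25.9% of all tested genes. Within mouse 1, 3 were higher and 1 lower, where 11.9% and 7.44% were. Socs3, an inhibitor of JAK kinases, had 0.614, 2.01 and 6.27 CPM in EV and 17.1, 24.0 and 31.9 CPM in BCR-ABL1 lines (log2 fold change 3.19 ± 0.56, FDR 0.00301). Socs1, a related inhibitor of interferon receptors, had 4.62, 7.58 and 23.4 CPM and 23.3, 34.5 and 46.6 CPM, the highest EV line reaching the lowest BCR-ABL1 line (log2 fold change 1.68 ± 0.41, FDR 0.0361). The call of Socs1 held in 13 of 22 alternative settings and was lost with the line pair as block, in mouse 2 alone, and without EV 1A, 1B, 1C or 2A or BCR-ABL1 1A, 1B or 1C. The remaining gene of the 3, Isg20, was counted with this list but codes for an exonuclease. Unlike Socs1 and Socs3, it is not an inhibitor of the receptors or their kinases, so its rise is not that of a brake. Isg20 had 0.706 to 1.41 and 2.85 to 3.75 CPM (log2 fold change 1.70 ± 0.19, FDR 4.34e-04), and lost its call in the lines of mouse 2 alone (FDR 0.0667).

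Genes related to the members by family moved unevenly. Of 12 other guanylate binding proteins and immunity related GTPases, 11 were tested and 7 rose (Gbp2b, Gbp4, Gbp5, Gbp6, Irgm2, Tgtp1 and Tgtp2), where 5.99% of all tested genes did. With the mouse as a replicate block Ifi47 passed as well (FDR 0.0341, without the block 0.102). Gbp4 held its call in 15 of 22 alternative settings (lost with DESeq2, with the line pair as block, in mouse 2 alone and without EV 1B, EV 1C, BCR-ABL1 1A or BCR-ABL1 1B) and Irgm2 in 20 (lost with the line pair as block and in mouse 2 alone), and Gbp2b and Gbp6 lost theirs in mouse 2 alone. Tgtp1 and Tgtp2, near copies whose reads may be shared, were at most 0.144 and 0.859 CPM in EV and 1.29 to 3.34 and 6.18 to 13.8 CPM in BCR-ABL1 lines. Gbp5 had 3.10 to 6.56 CPM in EV lines, against 15 to 40.1 CPM in BCR-ABL1 lines (log2 fold change 2.33 ± 0.26, FDR 1.93e-04). Of these 11, 10 had a significant interaction with the mouse, each with a smaller log2 fold change in mouse 2, against 10.8% of all tested genes. Of 6 other IFITM genes, 3 were tested and Ifitm1 rose, from 0, 0.0775 and 0.307 CPM in EV to 7.11, 14.2 and 24.8 CPM in BCR-ABL1 lines (log2 fold change 7.03 ± 0.85, FDR 1.77e-04). In the same lines Ifitm3 was at 0.116 to 1.02 CPM. Among 7 other OAS genes, 12 IFI200 cluster genes and 3 other PARP genes, 2, 7 and 3 were tested and 0 were called by glmTreat. For these, glmQLFTest against no change put 0 higher and 2 lower, against 22.5% and 25.9% of all tested genes.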

How the data were processed

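RNA of 12 lines was made into stranded total RNA libraries. According to the submitters' processing notes, the authors used FastQC 0.11.5, Trimmomatic 0.36, TopHat2 2.1.1, Bowtie2 2.3.2 and featureCounts 1.5.3 with GRCm38, and R 3.6.1 with edgeR 3.18.1. They deposited whole-number counts per gene, without normalization or pooling. Whether counting used strand is not given in the sources used here, so members overlapping a gene on the other strand may hold its reads.

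From these counts, genes passing filterByExpr (15038 of 51826) were scaled by TMM and fitted with edgeR 4.0.16 (R 4.3.3, quasi-likelihood) over all 12 lines with condition as the term, and tested with glmTreat against 1.5-fold and Benjamini-Hochberg adjustment over all tested genes. Standard errors are the log2 fold change divided by the root of the quasi-likelihood F. Exact permutation tests used all 924 labelings of the lines. A fit of 4 groups (mouse by condition) gave the values within each mouse, between the mice and the interaction (glmQLFTest). Symbols and exon lengths came from GENCODE M21 on GRCm38, which named 51633 identifiers. The list symbol Mb21d1 was matched as Cgas and Mnda was not matched. Log2 CPM used a prior count of 2. Intervals of count ratios are exact at 95%. Neither they nor the floor cover more than counting error, as several reads can stem from 1 molecule. All fits were tested on simulated data, the outcome of which is not given here. Other tools were limma 3.58.1, DESeq2 1.42.0, Python 3.11.15 and matplotlib 3.10.9.

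Members given full values were, among those called, up to 6 that rose most and up to 6 that fell most, the 6 with the lowest interaction FDR, the 3 highest per kilobase in each condition and those below the filter; further members and all called pathway and family genes may be named. The members and lists were chosen with earlier results of these data known. Alternatives covered scaling, filters, tests, replicate blocks, each mouse alone and each line left out. Lines of 1 mouse share the animal, so the mouse pairs lines across conditions. Deviations from the condition means correlated at 0.0853 to 0.240 when the EV and the BCR-ABL1 line came from 1 mouse, and at -0.203 to -0.0636 when they came from different mice. Such deviations cancel out over the lines of a condition, so the opposite signs are linked and the negative values are no separate evidence of pairing. P-values measure the spread between lines of 2 animals.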

Additional observations from a re-analysis of the deposited data

Results flagged for a closer look

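For 20 members the change between conditions differed between the mice (interaction FDR 3.17e-05 to 0.0336). The log2 fold change in mouse 2 minus that in mouse 1 was -1.78 for Igtp, -3.22 for Gbp2, -1.79 for Gbp7, -0.67 for Irgm1 and -4.78 for Iigp1 among the GTPases. Among antiviral effectors it was -5.07 for Ifit1, -2.38 for Ifit3, -4.15 for Oas1a, -4.31 for Mx1, -3.66 for Mx2 and 2.15 for Bst2. Elsewhere it was -5.41 for Rtp4, -1.27 for Xaf1, -4.98 for Usp18, -2.45 for Zbp1 and -2.11 for Irf7. In the group of PARP, DTX and TRIM proteins it was -5.08 for Parp12, -1.09 for Parp14, -0.93 for Dtx3l and -0.73 for Trim30a. Fitted differences above 4 in size belong to genes with few counts in the EV lines of mouse 1 and depend on the prior count.

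In 5 of 90 sets of 6 lines (45 members in each condition), 1 line lay far from the other 5 by Dixon's criterion, which chance alone meets in about 1 of 20. EV 2C was low for Ddx58 (9.05 CPM) and Isg15 (0.325 CPM), and BCR-ABL1 2A was low for Trim25 (37.2 CPM). EV 1B was high for Ifitm3 (0.0144 CPM) and EV 2A for Ifi44 (0.0920 CPM), both of which rest on very few counts.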

How the results depend on the processing

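All 17 members that rose were called again with RLE size factors, without the filter, in the likelihood ratio fit, with DESeq2, with the mouse as replicate block and with any 1 line left out, with totals of 17 to 20. The total was 8 of 29 tested members under a filter of CPM 1 or more in 6 lines, 26 by glmQLFTest against no change, and 31 and 8 in the lines of mouse 1 and of mouse 2 alone. Members lower were 0, and 1 by glmQLFTest, 2 in mouse 1 alone and 0 to 1 with a line left out. A replicate block for the line pair gave 16 members higher, without Oas1a, and the mouse as block changed the call of no member but Isg15. Without the filter, 16 members were higher and 2 lower within mouse 2, 1 was lower in mouse 2 among EV lines and 15 among BCR-ABL1 lines. With a line left out, the interaction was called for 15 to 34 members, 21 to 29 were higher within mouse 1, 9 to 13 were higher and 0 to 5 lower within mouse 2, 3 to 14 were higher and 0 to 1 lower in mouse 2 among EV lines, and 0 to 14 were lower among BCR-ABL1 lines. The comparison of BCR-ABL1 lines between mice therefore rests on single lines. It gave 0 without BCR-ABL1 2A, 2B or 2C, 1 without BCR-ABL1 1A, 1B or 1C or without EV 1B or EV 1C, 5 without EV 2B and 14 without EV 2C. Among EV lines, 3 were higher in mouse 2 without EV 1B or EV 1C and 14 without EV 2C. The causes were not tested. Shares of all tested genes are given only for the main fits, with the mouse as block, by glmQLFTest against no change and without EV 2C. The counts of the other alternatives, here and above, therefore have no comparison with genes in general.

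Signs turned only for members that were not called with all lines. In mouse 1 alone, the log2 fold change was 0.25 for Cmpk2, -0.86 for Bst2 (called lower there, FDR 0.04995), 0.0872 for Ddx58, 0.31 for Irf9 and -0.0612 for Herc6. In mouse 2 alone it was -0.12 for Xaf1, -0.75 for Irf7, -1.01 for Parp12, -0.42 for Parp14 and -0.24 for Dtx3l. With a line left out it ran from -0.15 to 0.24 for Bst2 (-0.00 without EV 2A, -0.07 without EV 2B, -0.15 without EV 2C and -0.11 without BCR-ABL1 2A) and from -0.13 to 0.10 for Irf9, positive without EV 2B. Of 365 values of the 17 called members under the alternatives, 355 stayed past the threshold and 0 turned sign. Among 284 values of 13 called pathway and family genes, 33 fell short of it, most often for Irf2, Socs1 and Gbp4. Without the filter, the median log2 fold change of all genes was -0.84, against -0.02.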
